A study of Mus musculus with 2 samples.

Results

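The 31 genes described here make or handle sterols and fatty acids. They were chosen by name, as the rows of both count tables whose symbol is on a fixed list, and each symbol named 1 row of the 56941 genes in the tables. The list holds 7 enzymes of the mevalonate pathway (Acat2, Hmgcs1, Mvk, Pmvk, Mvd, Idi1 and Fdps) and 11 enzymes that turn farnesyl diphosphate and squalene into sterol (Fdft1, Sqle, Lss, Cyp51, Tm7sf2, Msmo1, Nsdhl, Hsd17b7, Ebp, Sc5d and Dhcr7), together the 18 sterol enzymes. It also holds 5 regulators (Srebf1, Srebf2, Scap, Insig1 and Insig2), 5 genes of fatty acid synthesis and desaturation (Acly, Acaca, Fasn, Scd1 and Scd2), and 3 genes of lipoprotein uptake and sterol transport (Vldlr, Stard4 and Abca1).

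Single-cell RNA sequencing was done on subcutaneous tumours grown in C57BL/6 mice from MC38, a mouse line derived from a colon tumour. The injected cells were a stable pool made by lentiviral transduction, carrying SPP1 in 1 group and a control vector in the other, and the genotype was labelled WT in both. Every mouse of both groups also received an antibody against PD-1 (10 mg/kg by intraperitoneal injection, 2 times a week) from day 7 after the cells, for 2 weeks, so no untreated tumour was among the samples. From each group the sequenced material was the tumour of 1 animal, giving 2 libraries, and a pool of transduced cells in 1 animal is the whole of each group. A difference between the libraries therefore has no replicate check, and it cannot be told apart from a difference between 2 mice or 2 cell pools. In the text below, paired values give the library labelled vector first and the library labelled SPP1 second.

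Sterol is built from acetyl units: Acat2 and Hmgcs1 condense them, Mvk, Pmvk and Mvd make the activated isoprene unit, Idi1 isomerises it, and Fdps joins the units to farnesyl diphosphate. Fdft1 makes squalene, Sqle oxidises it, Lss closes the rings, and the remaining enzymes trim and rearrange lanosterol towards cholesterol. The transcription factors encoded by Srebf1 and Srebf2 switch these genes on: when membrane sterol is low, the escort protein Scap carries the precursors to the Golgi for cleavage, and the proteins made by Insig1 and Insig2 hold Scap back when sterol is plentiful. Abca1, which exports cholesterol from the cell, is a textbook target of the liver X receptors, which answer to oxysterols. Macrophages are well known for their large capacity for this export.

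The promoters of the enzymes are shown first. Whether the short sequences found in them bear on how these genes varied from cell to cell was not tested. RefSeq (GRCm38.p6) gave 34 promoter windows for 25 of the 31 members; there was none for Fdps, Fdft1, Sqle, Scd1, Scd2 and Stard4. In the 250 bases before the start, both strands were searched for TCACNCCAC and CACCCCAC (forms of the sterol regulatory element), CCAAT (the box bound by NF-Y) and GGGCGG (a box bound by Sp1). The 150 bases before the start are printed for the 4 enzymes with the strongest mean correlation with the other enzymes among those with a window, and for Abca1, which ran against them. Capitals mark matches to TCACNCCAC, CACCCCAC or CCAAT, or to the reverse complement (ATTGG for CCAAT), and lower case is all other sequence. The windows lie at chr13:119690201-119690350, plus strand, for Hmgcs1, chr13:8885456-8885605, plus strand, for Idi1, chr5:4104698-4104847, minus strand, for Cyp51, chr8:64733579-64733728, minus strand, for Msmo1, and chr4:53159896-53160045, minus strand, for Abca1.
Hmgcs1: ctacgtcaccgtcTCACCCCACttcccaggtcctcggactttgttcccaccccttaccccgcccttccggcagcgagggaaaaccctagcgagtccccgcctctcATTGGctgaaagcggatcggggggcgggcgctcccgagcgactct
Idi1: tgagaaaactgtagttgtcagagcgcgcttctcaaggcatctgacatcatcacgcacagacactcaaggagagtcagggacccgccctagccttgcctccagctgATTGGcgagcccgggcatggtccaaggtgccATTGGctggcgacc
Cyp51: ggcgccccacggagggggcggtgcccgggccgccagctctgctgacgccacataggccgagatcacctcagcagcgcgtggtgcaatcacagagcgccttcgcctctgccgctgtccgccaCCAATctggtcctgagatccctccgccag
Msmo1: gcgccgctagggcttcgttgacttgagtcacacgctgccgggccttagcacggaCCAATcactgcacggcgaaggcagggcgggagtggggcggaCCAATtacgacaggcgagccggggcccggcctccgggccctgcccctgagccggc
Abca1: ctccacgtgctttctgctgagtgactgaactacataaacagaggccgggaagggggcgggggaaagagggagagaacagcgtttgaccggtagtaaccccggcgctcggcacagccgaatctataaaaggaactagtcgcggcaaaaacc

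A CCAAT match was found in the windows of 14 of 15 enzymes (93.3%; Acat2 was the exception) and of 20 of 25 members (80.0%). Over all 27025 genes with a window the share was 37.5%, and over the 10750 of them with at least 100 UMIs (counted molecules) in the largest cell class it was 40.6%. GGGCGG was in 14 of 15 enzyme promoters, against 35.4% of all genes and 61.5% of the detected ones. CACCCCAC was in Acat2 (at -181 from the start) and in Hmgcs1 (at -136), against 2.98% of all genes, and the Hmgcs1 match overlaps the only TCACNCCAC match among the members (1.22% of all genes). Bases just after the start were found in a GENCODE transcript of the same gene for 29 of the 34 windows. The Hmgcs1 window was not among these. The Hmgcs1 promoter holds CCAAT at -45, -176 and -237, that of Msmo1 at -55, -96 and -160, that of Idi1 at -14 and -45, and that of Cyp51 at -29. The window of Abca1 holds no match to CCAAT, CACCCCAC or TCACNCCAC, though it holds GGGCGG. These are matches of letters only, and a promoter with no match in this window is described no further.

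The libraries held 14317 and 14029 cell barcodes with 164247003 and 164599332 UMIs, a median of 10277 and 10218 per barcode, and shared 93 barcodes. After filters, 13894 and 13586 cells remained. They were clustered without the members and without 39 further pathway genes, so that the levels of these genes did not make the clusters. The largest class, 9922 and 10011 cells in 13 clusters, is called the Hmga2-high compartment after its leading genes, because it does not carry the markers of the labelled colon adenocarcinoma: of 9 epithelial genes, Krt20 and Cdx2 were at 0, Epcam was at 2 and 1 UMIs, and the 9 together came to 5.21 and 5.04 CPM (counts per 1000000 UMIs of the class). Macrophage/monocyte-like cells numbered 808 and 629. Mouse Spp1 was not higher under the label SPP1 in the compartment, at 134 and 127 CPM (log2 ratio of SPP1 over vector -0.07, 95% interval -0.10 to -0.04). Each library is therefore named by its label only. In macrophage/monocyte-like cells Spp1 was at 2310 and 2661 CPM (0.20, 0.17 to 0.24). Whether the construct's own transcript is counted under that gene was not tested. Clusters 4 and 12, which share the leading gene Magea9, stand apart: they hold 69 and 66 cells labelled vector against 1986 and 885 labelled SPP1, and values without them are given where they matter.

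In the Hmga2-high compartment all 31 members had at least 100 UMIs. The summed level of the 18 enzymes was 1059 and 822 CPM. Among mevalonate enzymes, Hmgcs1 had 157 and 113 CPM, Idi1 109 and 81.8, Fdps 97.8 and 81.3, Acat2 28.2 and 22.5, Pmvk 12.2 and 10.9, Mvd 7.60 and 7.50, and Mvk 6.29 and 6.20. Among later enzymes, Msmo1, the methylsterol oxidase, had 181 and 118 CPM, Cyp51, the lanosterol demethylase, 133 and 104, Sqle, a rate-limiting step, 114 and 93.6, and Tm7sf2 only 2.78 and 2.37. The regulators ranged from Scap (12.02 and 11.7 CPM) and Srebf1 (14.6 and 14.5) to Insig1 (91.7 and 82.0), with Srebf2 at 74.0 and 71.2 and Insig2 at 88.5 and 82.6. Of the lipid desaturases, Scd2 had 238 and 161 CPM and Scd1 198 and 142. Acly, which supplies cytosolic acetyl-CoA, had 96.1 and 88.2 CPM, Acaca 55.1 and 48.4, and Fasn 23.1 and 23.8. Abca1 was low, at 5.44 and 5.37 CPM. These are counts of molecules that are not corrected for transcript length, so they are compared between libraries or classes for 1 gene and not between genes. Acat2 has a close paralog, Acat3, and how reads shared by such copies were counted was not given, so its level is uncertain.

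**Figure D1:**
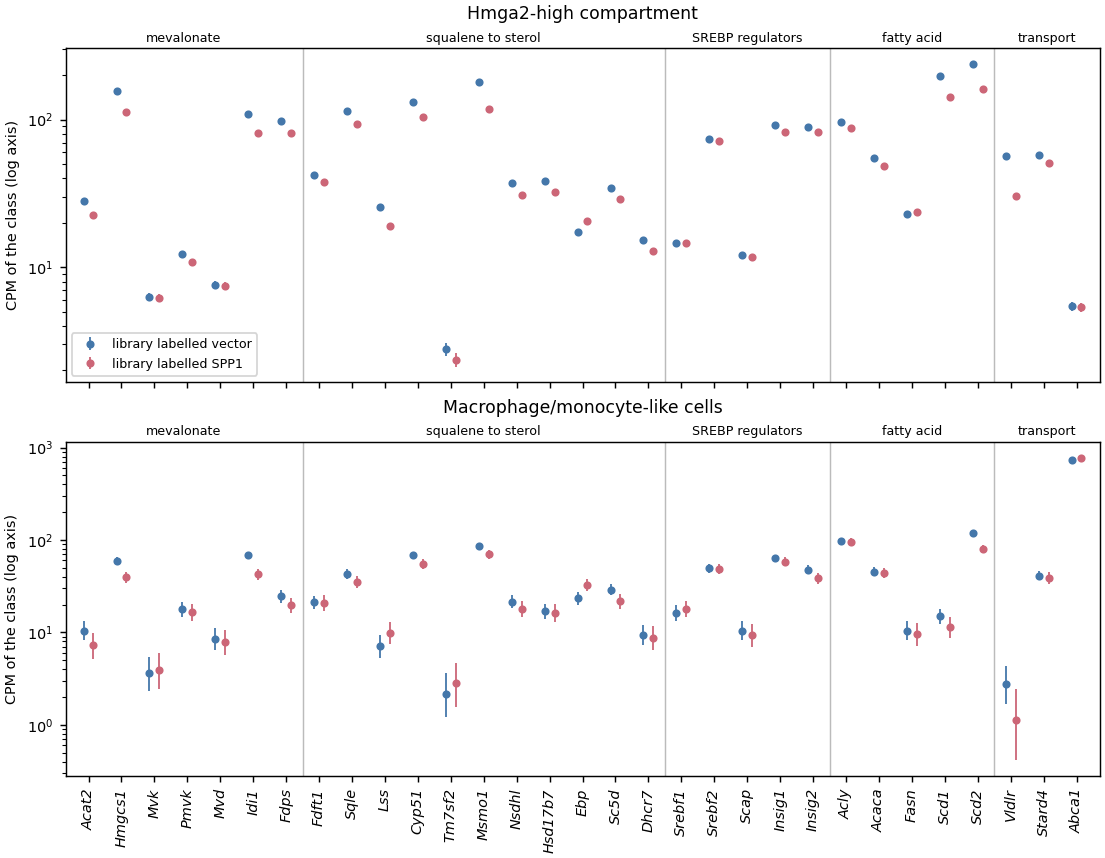
Level of each of the 31 members in CPM of the class (log axis) in the Hmga2-high compartment (top) and in macrophage/monocyte-like cells (bottom). Points are the 2 libraries and bars are exact 95% Poisson intervals for counting error only. Abca1 lies at 5.44 and 5.37 CPM in the compartment and at 726 and 765 CPM in the macrophage/monocyte-like cells.

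Between the libraries, most of the sterol pathway was somewhat lower in the compartment under the label SPP1. The log2 ratio (SPP1 over vector) of the summed enzymes was -0.36 (95% interval -0.38 to -0.35, counting error only), and 17 of the 18 enzymes had a ratio below 0, 15 of them with an interval below 0. The median of the enzymes was -0.26, and that of all 31 members -0.23 with 29 below 0 (of these, Tm7sf2, Stard4, Scap and Abca1 were at 0.17, 0.011, 0.075 and 0.11 in cells thinned to 1000 UMIs). Over all 15421 genes with at least 100 UMIs the median was 0.00, 49.2% were below 0 and 29.8% had an interval below 0. Most of these differences were small: 2 members were at least 1.5-fold lower, Msmo1 (log2 ratio -0.63, interval -0.65 to -0.60) and Vldlr (-0.89, -0.95 to -0.84), and none was 1.5-fold higher. Of all genes, 1.58% were 1.5-fold lower and 4.04% were 1.5-fold higher.

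Vldlr, a lipoprotein receptor, was at 56.7 and 30.5 CPM. Scd2 (-0.56, -0.58 to -0.53), Scd1 (-0.48, -0.51 to -0.45), Hmgcs1 (-0.47, -0.50 to -0.44), Lss (-0.43, -0.50 to -0.36) and Idi1 (-0.41, -0.44 to -0.37) came next, all short of 1.5-fold. Ebp, the sterol isomerase of the late pathway, went the other way, with 17.3 and 20.6 CPM and a ratio of 0.26 (0.18 to 0.33), and it was higher in 13 of 13 clusters, though in cells thinned to 1000 UMIs its ratio was -0.078. Mvk (-0.02, -0.16 to 0.12) and Mvd (-0.02, -0.14 to 0.10) had intervals across 0. The regulators stayed close to 0: Srebf1 -0.01 (-0.10 to 0.08), Scap -0.04 (-0.14 to 0.06), Srebf2 -0.06 (-0.10 to -0.02), Insig2 -0.10 (-0.14 to -0.06) and Insig1 -0.16 (-0.20 to -0.13). The median of the 5 regulators was -0.06, against -0.26 for the enzymes. Fasn (0.04, -0.03 to 0.11) and Abca1 (-0.02, -0.17 to 0.13) had intervals across 0.

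**Figure D2:**
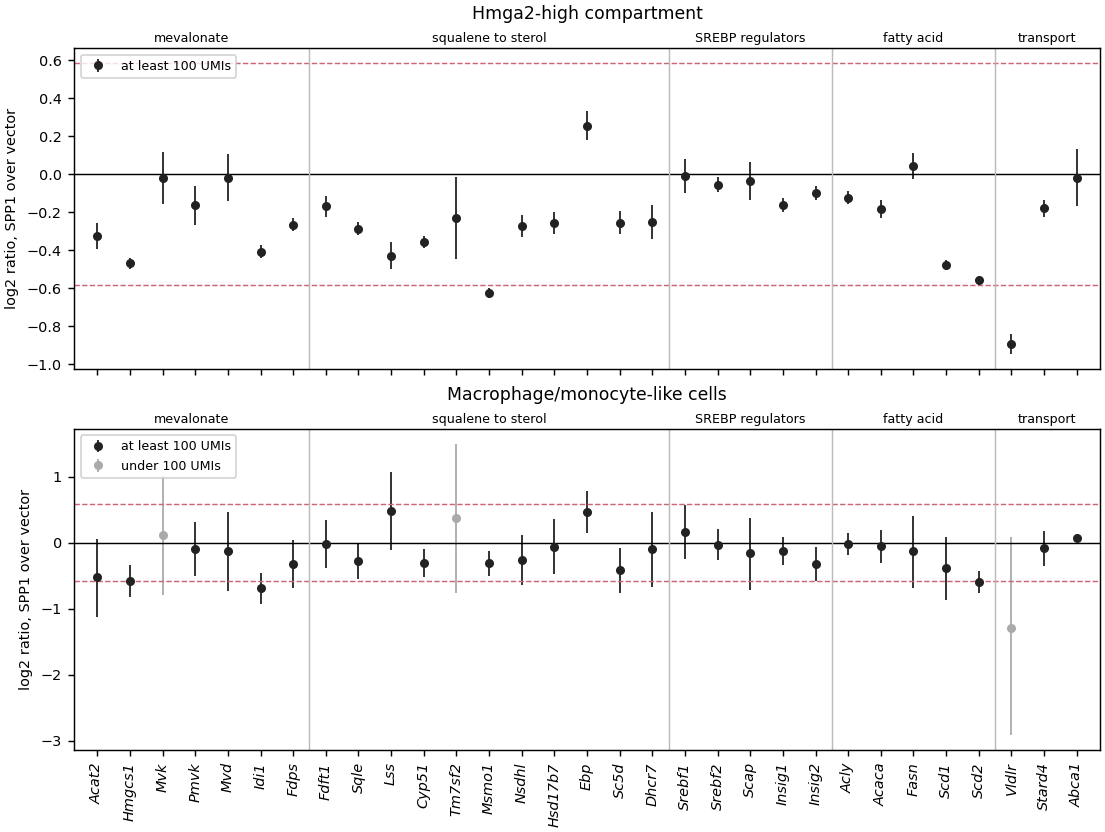
Log2 ratio of the library labelled SPP1 over the library labelled vector for each member in the Hmga2-high compartment (top) and in macrophage/monocyte-like cells (bottom). Bars are exact 95% intervals for counting error only, dashed lines mark 1.5-fold, and grey points have under 100 UMIs. In the compartment 29 of 31 points lie below 0, with Vldlr lowest at -0.89 and Ebp highest at 0.26 (-0.078 in cells thinned to 1000 UMIs).

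The direction was seen within clusters as well as over the whole class. The summed enzymes were lower under the label SPP1 in 12 of 13 clusters, each time with an interval below 0, and the ratios ran from -0.92 in cluster 12 to 0.02 in cluster 6. Msmo1, Hmgcs1 and Scd1 were lower in 13 of 13 clusters, with ratios of -1.39 to -0.02 for Msmo1, -1.85 to -0.06 for Hmgcs1 and -0.80 to -0.30 for Scd1. Vldlr was lower in 10 of 13, and it was low in clusters 4 and 12 in both libraries, at 16.9 and 8.49 CPM and at 9.73 and 8.04 CPM. Without these clusters, the summed enzymes had a ratio of -0.31 and 15 of 18 enzymes were below 0. Vldlr then had -0.57 and Msmo1 -0.52, and no member was 1.5-fold lower. Shares of all genes were not counted for this reduced set. Scap, Srebf1, Insig2 and Mvd were split 7 to 6 over the 13 clusters.

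Of 39 other pathway genes, 35 had at least 100 UMIs in the compartment, and only Acss2, the acetyl-CoA synthetase of the cytosol, was 1.5-fold lower (7.02 and 4.40 CPM, -0.67, -0.82 to -0.53). The 21 other fatty acid and isoprenoid genes had a median of -0.05 with 14 below 0, among them Elovl6, a fatty acid elongase, at 110 and 82.4 CPM (-0.41, -0.45 to -0.38). The 5 genes of SREBP processing and sterol sensing had a median of -0.19, all 5 below 0. Of the 12 efflux, oxysterol and storage genes, 9 had enough UMIs, with a median of 0.04 and 4 below 0.

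The clusters of the compartment differed more widely in sterol enzyme transcripts than the libraries did. Summed enzyme levels ran from 586 CPM (cluster 6) to 1957 CPM (cluster 12, 66 cells) under the label vector and from 498 (cluster 1) to 1393 CPM (cluster 16) under the label SPP1. The clusters stood in a similar order in both (Spearman's rho across the 13 clusters 0.88, a description). Deeper clusters also had higher enzyme CPM: median UMIs per cell ran from 8706 to 21437 and from 9499 to 21133, with a rho of 0.84 and 0.81 against enzyme CPM, and the part of depth or cell size in this order was not tested. A member is counted for a cluster when its CPM was at least 1.5-fold higher or lower than in the rest of the compartment in both libraries. By this count 20 of the 31 members passed in at least 1 cluster. The share of all genes that passed in at least 1 of the 13 clusters was not counted. The number is therefore not read as a result about the members.

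Cluster 1, led by the matrix genes Aspn, Dpt and Ogn (2306 and 1191 cells), was the one low in most steps, at 589 and 498 CPM for the summed enzymes. There 11 of 18 enzymes were lower, beside 11.5% of all 13559 genes tested for that cluster: Fdps at 27.0 and 29.7 CPM (log2 ratio to the rest -2.06 and -1.54), Acat2 at 9.13 and 11.0 (-1.82 and -1.10), Fdft1 at 17.8 and 16.6 (-1.41 and -1.26), Idi1 at 44.5 and 38.1 (-1.46 and -1.18), Msmo1 at 88.6 and 59.4 (-1.18 and -1.05), and Mvd, Mvk, Sqle, Cyp51, Tm7sf2 and Nsdhl. Stard4, which shuttles cholesterol between membranes, was lower too (-1.06 and -0.85). Abca1 was higher, at 10.6 and 15.7 CPM (1.30 and 1.86), as was Insig2, at 133 and 124 CPM (0.75 and 0.66), beside 7.03% of all genes. This cluster raised 3 of 6 fibroblast markers, and its summed Hmga2-list level, 2333 and 2497 CPM, was near that of the compartment (2830 and 3091 CPM), and whether host stromal cells lie in it was not tested.

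Cluster 6 (Ppm1n and Gipc2, 798 and 587 cells) was also low in sum, at 586 and 596 CPM. Like cluster 1 it raised 3 of 6 fibroblast markers (its Hmga2-list level was 2161 and 2661 CPM), and whether host stromal cells lie in it was not tested. Hmgcs1 (81.3 and 68.3 CPM, -0.98 and -0.75), Idi1 (-1.14 and -0.70), Sqle (-1.14 and -0.64), Cyp51 (-1.24 and -0.81), Insig1 (49.5 and 46.3 CPM, -0.92 and -0.85) and Stard4 (-1.31 and -0.88) were lower, beside 7.41% of all genes. Abca1 at 13.5 and 13.1 CPM (1.44 and 1.38) and Tm7sf2 (29 and 21 UMIs, 0.60 and 0.61, both intervals across 0) were higher, beside 10.4%. Idi1, Sqle, Cyp51 and Stard4 were lower and Abca1 higher in cluster 1 too, whereas Hmgcs1 and Insig1 were not among the members counted in cluster 1. In cluster 4 (Pcdh9, Nrep and Magea9) 7 members were lower, beside 13% of all genes: Acat2, Pmvk, Fdps (38.4 and 33.9 CPM, -1.35 and -1.40), Fdft1, Lss, Tm7sf2 and Vldlr (-1.75 and -2.01), with 69 cells behind the first value of each pair, where Pmvk and Tm7sf2 had 5 and 1 UMIs and intervals across 0. The interferon-response cluster 14, led by Ifit3 and Ifit1 (672 and 601 CPM in sum), was lower in Acat2 (-0.72 and -0.82), Mvd (-0.67 and -0.82) and Idi1 (58.1 and 47.0 CPM, -0.92 and -0.82), beside 4.13% of all genes. Cluster 8, led by the interferon-gamma targets Cxcl9, Cd274 and Iigp1, had no member past 1.5-fold either way (1103 and 1015 CPM in sum), beside 3.57% of genes lower and 2.52% higher. Cluster 11, led by Slc7a2 and Fbxl7, had none either (1207 and 1018 CPM), beside 4.2% lower and 5.54% higher, and cluster 2, led by the hypoxia gene Ankrd37 and by Cryab, was lower in Acat2 alone (-0.72 and -0.78), beside 6.93%.

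The highest sums were in cluster 12 (1957 CPM, in 66 cells, and 1034 CPM), in cluster 16 and in 3 of the 4 cycling clusters: cluster 7 had 1318 and 1075 CPM, while the cycling cluster 3, at 1138 and 840 CPM, lay in the middle of the order. Cluster 13, led by the DNA replication genes Cdc6, Uhrf1 and Exo1, had 1587 and 1093 CPM in sum, with Acat2 (48.7 and 34.7 CPM, 0.85 and 0.65), Pmvk, Fdps (151 and 132 CPM, 0.68 and 0.73), Tm7sf2 and Msmo1 (289 and 183 CPM, 0.72 and 0.66) higher, beside 4.06% of all genes. Cluster 9, led by the mitotic genes Cenpa and Cdc20, had 1524 and 1078 CPM, with Mvd, Fdps (178 and 128 CPM, 0.92 and 0.70) and Scd2 (385 and 244 CPM, 0.74 and 0.64) higher, beside 1.95%. Abca1 was lower in both, as in clusters 3 and 7, the other proliferating ones (from -0.88 to -1.76 over these 4 clusters and both libraries), beside 7.22%, 7.26%, 7.75% and 7.35% of all genes in clusters 13, 9, 3 and 7. Cluster 16 (Fbxl7, Slc7a2 and Plxdc1; 354 and 254 cells) had 1436 and 1393 CPM, the smallest library difference below 0 (-0.04), and 7 members higher, beside 6.73% of all genes: Acat2 (61.3 and 58.6 CPM, 1.23 and 1.48), Mvd, Idi1 (179 and 167 CPM, 0.77 and 1.09), Fdps, Fdft1, Lss and Stard4. It was also the deepest cluster, at 21437 and 21133 median UMIs. In cluster 12, Vldlr (-2.55 and -2.06), Insig2 (-0.75 and -0.68) and Abca1 (5 and 22 UMIs, -0.65 and -2.21, the first with an interval across 0) were lower, beside 9.65%, and Stard4 was higher (1.10 and 0.63), beside 2.4%.

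**Figure D3:**
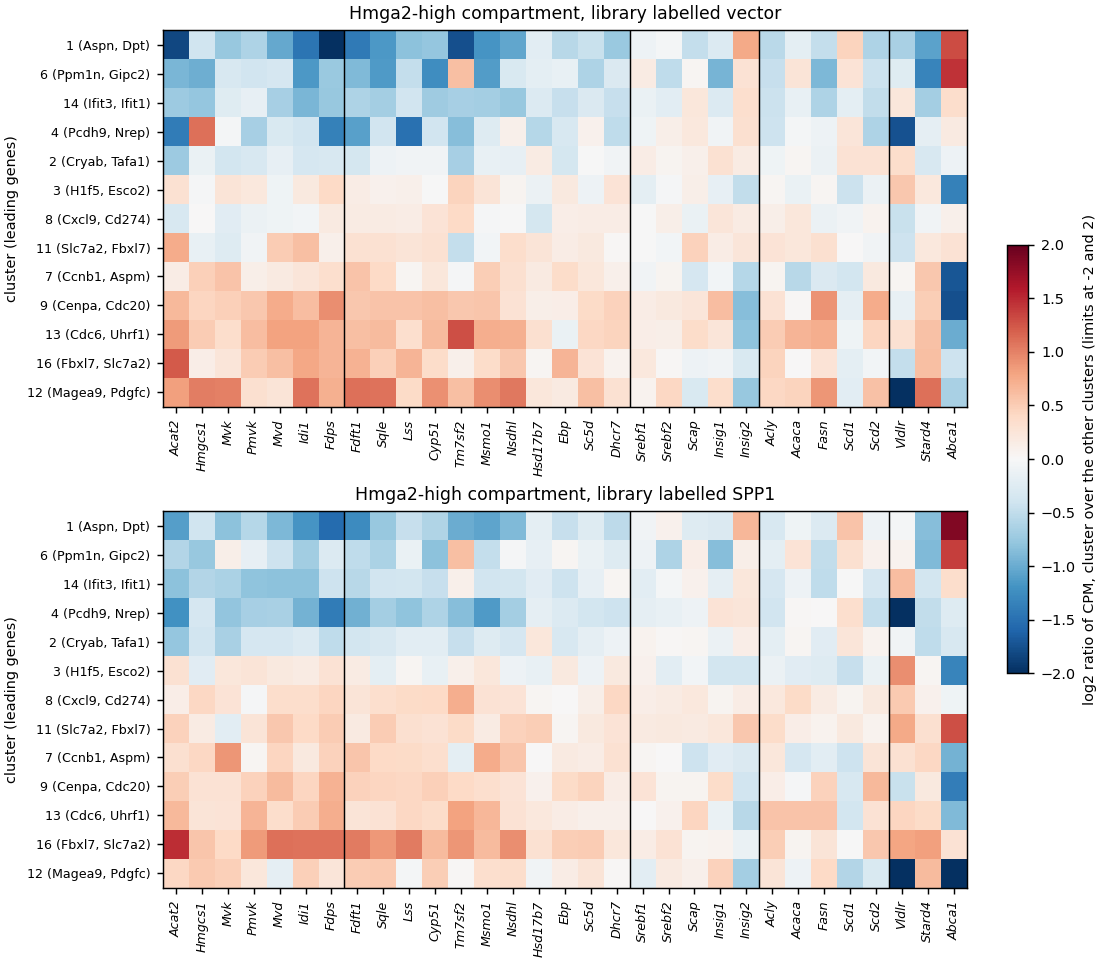
Log2 ratio of each member in each cluster of the Hmga2-high compartment over the other clusters, by library; colours are limited at -2 and 2, and clusters are ordered by summed enzyme level. The sterol enzymes are blue in the matrix-gene cluster 1 and red in the replication cluster 13 and in cluster 16, while Abca1 has the opposite colours in clusters 1 and 13.

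Within clusters, cells of equal depth still differed in the pathway as a whole. For this, cells of the compartment were thinned to 5000 UMIs (9131 and 9274 cells, 791 and 737 shallower cells left out), and each value was taken within a cluster and then averaged. The summed UMIs of the 7 mevalonate enzymes correlated with those of the 11 later enzymes with a Pearson's r of 0.56 and 0.54, and single clusters lay between 0.42 and 0.70 and between 0.35 and 0.65. Single pairs correlated weakly in these sparse counts: of 153 pairs, 142 and 150 were above 0, with a median of 0.05 and 0.06. The highest pairs were Hmgcs1 with Msmo1 (0.36 and 0.31), Cyp51 with Msmo1 (0.30 and 0.31) and Idi1 with Msmo1 (0.30 and 0.29). By its mean correlation with the other 17 enzymes, Msmo1 stood first (0.153 and 0.147), with Idi1 (0.145 and 0.135), Cyp51 (0.144 and 0.132), Hmgcs1, Sqle and Fdps close behind, and Ebp stood last (0.0064 and 0.018). These are descriptions over cells that share a library, with no p-value. A thinned cell held 4.78 and 3.72 enzyme UMIs on average, and 11.4% and 13.2% of cells held none.

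Cells were then ranked within each cluster by the summed enzyme UMIs, leaving out the enzyme that was read, and the top and bottom 20% were compared (1821 cells each under the label vector and 1849 each under the label SPP1). The top group held 12.03 and 9.5 enzyme UMIs per cell and the bottom group 0.55 and 0.39. Of the 18 enzymes, 17 were at least 1.5-fold higher in the top group in each library, beside 0.447% of 8503 genes with at least 0.05 UMIs per thinned cell that were higher in both. The enzymes themselves were not among those genes, and Mvk, Mvd and Tm7sf2 had fewer UMIs than that minimum. Idi1 had 1951 UMIs in the top group against 307 in the bottom group under the label vector, and 1510 against 280 under the label SPP1 (log2 ratio 2.67 and 2.43). Msmo1 had 3160 against 534 and 2106 against 356 (2.57 and 2.56), and Cyp51 2426 against 395 and 1926 against 426 (2.62 and 2.18). Ebp was the exception, with 186 against 132 and 238 against 160 (0.49, interval 0.17 to 0.83, and 0.57, 0.28 to 0.87).

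The other members, which had no part in the ranking, fell into 3 kinds. Insig1 (1647 against 464 UMIs and 1410 against 497, 1.83 and 1.5), Stard4 (1.79 and 1.38), Scd2 (3798 against 1143 and 2724 against 926, 1.73 and 1.56), Acly (1.25 and 0.99), Srebf2 (1.17 and 1.12) and Fasn (1.08 and 1.29) were higher with the enzymes. Scd1 (0.25 and 0.14), Acaca (0.27 and 0.36) and Scap (-0.16 and 0.07) were nearly level, and Srebf1 had 0.68 and 0.22. Insig2 (-0.40 and -0.34) and Vldlr (-0.38 and -0.33) were slightly lower, and Abca1 was much lower, with 21 UMIs against 101 and 21 against 87 (-2.27, -3.02 to -1.58, and -2.05, -2.81 to -1.35). The share of genes lower was 0.282%, though Abca1, at 0.033 and 0.030 UMIs per thinned cell, lies under the minimum for those genes. Insig1 and Insig2 thus had opposite signs, and the paralogs Scd2 and Scd1 differed in size. Full depth before thinning was somewhat higher in the top group (median 14419 against 12147 UMIs, and 13931 against 12207). Of the fibroblast markers, 3 of 6 reached the level for this comparison: Dpt was lower in the top group (-1.27 and -0.69), Ly6c1 had -0.66 and -0.38 and Cd34 -0.06 and 0.11. Lyz2, the only 1 of 9 macrophage markers to reach it, had -0.05 and -0.08. The part of stromal cells in the Abca1 and Insig2 values was not tested.

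**Figure D4:**
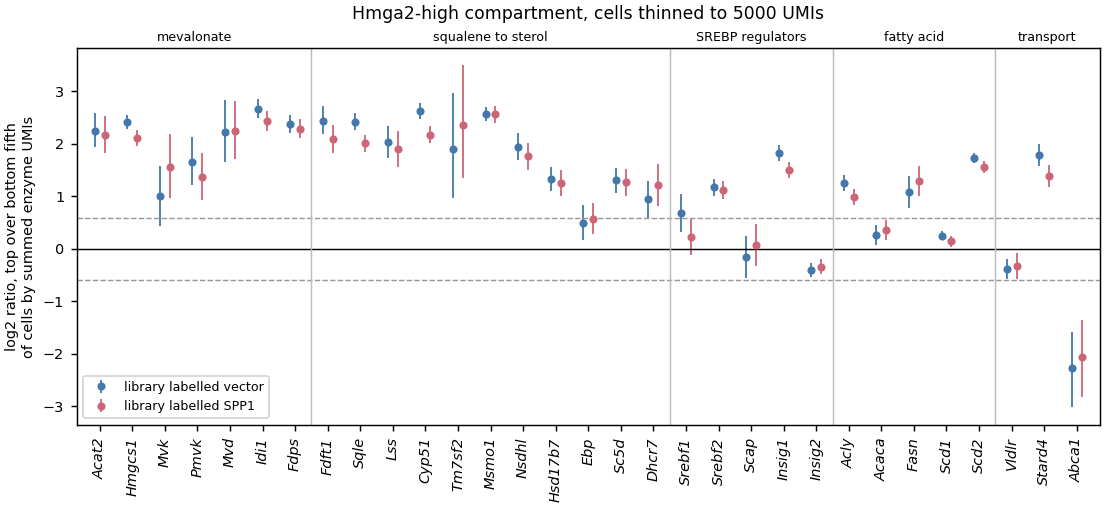
Log2 ratio of each member in the top over the bottom 20% of Hmga2-high compartment cells, ranked within clusters by the summed UMIs of the sterol enzymes other than the one read, in cells thinned to 5000 UMIs. Points are the 2 libraries, bars are exact 95% intervals for counting error only, and dashed lines mark 1.5-fold. The enzymes other than Ebp lie above 1.5-fold, Insig1, Stard4 and Scd2 lie with them, and Abca1 lies near -2.

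Genes outside the list showed which others ran with the enzymes. Of the other pathway genes, Elovl6 (2.02 and 1.60), Pcyt2 (1.53 and 1.15), Fads2 (1.49 and 1.12), Fads1 (0.94 and 1.00), Erg28 (1.25 and 0.75), Tmem97 (0.84 and 0.93), Acsl3 (0.98 and 0.76) and Slc25a1 (0.90 and 0.73) were at least 1.5-fold higher in the top group in both libraries. Elovl6, Fads1 and Fads2 lengthen or desaturate fatty acids, and Slc25a1 exports citrate from mitochondria. Mylip, which marks lipoprotein receptors for degradation and is a liver X receptor target like Abca1, was lower (-0.93 and -0.87). None of the other efflux, oxysterol and storage genes that reached the minimum passed 1.5-fold either way. The largest ratios among them were those of Lipa (-0.39 and -0.08) and Pltp (-0.36 and -0.24). Beyond the pathway lists, the 15 genes with the largest ratios in both libraries were Lrp8 (235 against 84 UMIs and 198 against 84, 1.48 and 1.24), Aacs (1.16 and 1.14), Map4k1 (1.13 and 1.19), Idh1 (1.24 and 0.99), Atg9b, Dbi (3795 against 1744 and 3237 against 1798, 1.12 and 0.85), Chrnb1, Fignl1, F2rl1, Pop1, Cyb5b, Uhrf1, Scarb1, Fkbp11 and Fabp5 (0.75 and 0.64). Lrp8 and Scarb1 are lipoprotein receptors, Aacs activates acetoacetate for lipid synthesis, Idh1 makes cytosolic NADPH, Dbi binds acyl-CoA, and Fabp5 binds fatty acids. Uhrf1 (0.68 and 0.68) is a leading gene of the replication cluster 13. The rest of the 15 are not described by function here, so the list is not read as one of lipid genes only.

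Macrophage/monocyte-like cells held less of most sterol enzymes, as of many other genes, and far more of the export gene. Abca1 was at 726 and 765 CPM, against 5.44 and 5.37 CPM in the compartment, a log2 ratio of 7.06 and 7.15. The summed enzymes were at 521 and 428 CPM, against 1059 and 822. Of the 18 enzymes, 12 were at least 1.5-fold lower in both libraries, and so were 17 of all 31 members, while Abca1 alone was higher. Over 13982 genes, 41.3% were lower and 16.1% higher by the same measure. The median of the enzymes was -0.88 and -0.81, that of all genes -0.52 and -0.49. Among the enzymes furthest below the compartment were Fdps (24.5 and 19.6 CPM against 97.8 and 81.3, -1.99 and -2.05), Acat2 (-1.43 and -1.63), Hmgcs1 (-1.41 and -1.52), Sqle (-1.42 and -1.41) and Lss (-1.86 and -0.95). Pmvk (0.54 and 0.61), Mvd (0.17 and 0.07) and Ebp (0.44 and 0.65) were at or above the compartment's level.

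The fatty acid genes were split in these cells. Acly (97.4 and 95.9 CPM) and Acaca (45.4 and 43.8 CPM) stood near their compartment levels (log2 ratio 0.02 and 0.12, and -0.28 and -0.15). Fasn (-1.14 and -1.32) and Scd2 (120 and 79.7 CPM, -0.98 and -1.02) were lower, and Scd1, at 14.96 and 11.4 CPM, was far lower (-3.73 and -3.64). Srebf1 (16.3 and 18.1 CPM) and Srebf2 (49.2 and 48.2 CPM) had 0.15 and 0.32, and -0.59 and -0.56, and Insig2 was lower (-0.89 and -1.11). Vldlr had 2.76 and 1.12 CPM, which is 4.87% and 3.68% of its compartment level. The Hmga2 list, taken as genes of the compartment, had 4.43% and 5.17% of its compartment level in these cells, so Vldlr there was at the level of that background. Scd1, at 7.54% and 8.02%, lay a little above it, and Fdps, at 25.1% and 24.2%, well above. In the other direction, Abca1 in the compartment was at 0.75% and 0.70% of its macrophage level, against 0.27% and 0.26% for the 9 macrophage markers summed. Single markers varied. Cd68 (3.56 and 4.44 CPM against 389 and 471 in macrophage/monocyte-like cells) had a larger share than Abca1. Cd14 (7.05 and 9.01 CPM against 982 and 812) had a similar or larger one, and the other markers had smaller ones. Whether Abca1 in the compartment lies above such background was not tested. Among the 12 efflux, oxysterol and storage genes, 10 were higher in macrophage/monocyte-like cells (median 1.88 in both libraries).

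Between the libraries, sterol enzymes were lower in macrophage/monocyte-like cells under the label SPP1 as well, with a summed ratio of -0.28 (-0.36 to -0.21). Of 28 members with at least 100 UMIs there, Idi1 (68.5 and 42.4 CPM, -0.69, -0.93 to -0.46) and Scd2 (120 and 79.7 CPM, -0.60, -0.77 to -0.43) were 1.5-fold lower, and none was 1.5-fold higher. This count of 2 was 0 in cells thinned to 1000 UMIs, where 5 members could be counted, and 1 to 5 under the other settings; the ratios ran from -1.16 to -0.59 for Idi1 and from -0.65 to -0.53 for Scd2. Of 8529 genes, 1.71% were lower and 2.71% higher by this measure, and the median of all genes was -0.02 against -0.27 for the 16 enzymes measured, 14 of which were below 0. Hmgcs1, at 58.9 and 39.5 CPM, had -0.58 (-0.83 to -0.34), and its ratio ran from -0.73 to -0.05 over the settings. Ebp was again higher (23.4 and 32.3 CPM, 0.47, 0.15 to 0.79; -0.22 in thinned cells), and Abca1 differed little (0.08, 0.02 to 0.14). Abcg1, a second cholesterol exporter and the only other pathway gene past 1.5-fold, was lower, at 171 and 101 CPM (-0.76, -0.91 to -0.61). The summed enzymes were lower in 10 of 12 clusters of these cells, with 6 intervals below 0 and 1 above. The 9 macrophage markers summed to 11952 and 14469 CPM and the Hmga2 list to 125 and 160 CPM in these cells, and the part of these in the library difference was not tested. Whether the libraries differ by the same amount in macrophage/monocyte-like cells and in the compartment was not tested.

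Clustered again without the pathway genes, these cells fell into 12 clusters of 21 to 151 cells per library. The same count of 1.5-fold in both libraries gave 33 calls for members there, on few UMIs: in 14 of them at least 1 interval lay across 0, against 4 of 56 in the compartment. Calls over all genes were not totalled, so these totals show only how well the calls were counted. Cluster 1, led by the interferon-response genes Ifit3, Cmpk2 and Ifit2 (128 and 49 cells), was among the lowest for the enzymes, at 316 and 297 CPM. Cyp51 was at 17.8 and 15.5 CPM there (log2 ratio to the rest -2.12 and -1.92), Idi1 at 22.5 and 8.88 (-1.77 and -2.36), Stard4 at 15.96 and 11.1 (-1.52 and -1.90), and Srebf2 (-0.71 and -1.52) was lower too, beside 8.73% of 6298 genes. Sqle (27 and 9 UMIs, -0.86 and -0.87), Fdps (15 and 5 UMIs, -0.91 and -0.88) and Insig1 (44 and 17 UMIs, -0.70 and -0.67) also passed, each with an interval across 0 under the label SPP1. Abca1 was higher there, at 1278 and 1136 CPM (1.03 and 0.64), beside 3.49%. Cluster 8, led by the monocyte genes Plac8 and Ly6c2 (51 and 28 cells), had summed enzymes of 714 and 433 CPM (log2 ratio to the rest 0.48, 0.28 to 0.68, and 0.02, -0.36 to 0.37), above the rest under the label vector only. Cyp51 at 148.5 and 116 CPM (1.20 and 1.12) and Insig1 at 133 and 123 (1.15 and 1.13) were higher there, beside 6.29%, and Abca1, at 142 and 174 CPM (-2.41 and -2.16), was lower, beside 12.1%. Idi1 (0.69 and 0.63) passed on 10 UMIs under the label SPP1, with an interval across 0 there, and Ebp (-0.92 and -1.35) on 4 and 2 UMIs, with both intervals across 0. Hmgcs1, which did not pass, had 0.38 and -1.05. Cluster 3, led by Ccl17 and Hepacam2 (702 and 544 CPM in sum), was higher in Sqle (0.79 and 1.05) and Cyp51 (0.78 and 1.15), beside 2.73%.

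In the heat-shock cluster 4 (Hspb1, Hspa1b; median 3901 and 5984 UMIs) Fdps, Fdft1, Cyp51, Srebf2 and Stard4 passed as lower, beside 8.57%, but on 1, 2, 7, 5 and 4 UMIs under the label vector, all 5 with intervals across 0 there. Under the label SPP1, Cyp51 (17 UMIs, -0.94, -1.74 to -0.23) and Srebf2 (16 UMIs, -0.82, -1.65 to -0.09) had intervals below 0. The mitotic cluster 2 (Hmmr, Ccnb1) was lower in Scd2 (-0.87 and -0.88) and Abca1 (-0.85 and -0.77), beside 5.13%, and higher in Ebp (40.6 and 54.7 CPM, 0.93 and 0.98), beside 7.05%. Cluster 10, in DNA replication by its leading gene Ccne2 (46 and 26 cells), was higher in Sqle (0.67 and 1.22) and Stard4 (0.90 and 1.40), beside 6.72%. Its enzymes summed to 613 and 776 CPM, the latter the highest under the label SPP1. Cluster 5 (Rapgef5, Bank1, Fcrls and Gas6) was lower in Scd2, at 61.7 and 23.0 CPM (-0.99 and -1.95), beside 7.34%. Cluster 11 was led by the matrix and mesenchymal genes Timp3 and Col6a1 and held 971 and 1082 CPM of the Hmga2 list against 60.9 to 174 CPM in the other 11, so its values (Insig1 higher, beside 5.7%, and Abca1 lower, beside 10.5%) are not read as those of macrophages. In cluster 0 (Areg and Il1a) Ebp was lower (-0.72 and -0.77), beside 6.14%. Calls with at least 1 interval across 0 were Fdps in cluster 0 (23 and 11 UMIs, -0.65 and -0.66), Ebp in cluster 6 (Calhm6; 21 and 17 UMIs, 0.73 and 1.01), beside 1.46%, Fdps in cluster 7 (Retnla; 15 and 7 UMIs, 0.70 and 0.67), beside 4.06%, and Cyp51 in cluster 9 (Cpb2; 15 and 9 UMIs, -0.75 and -0.90), beside 7.26%. Enzyme order across the 12 clusters was less alike between libraries than in the compartment (rho 0.43, few cells per cluster).

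**Figure D5:**
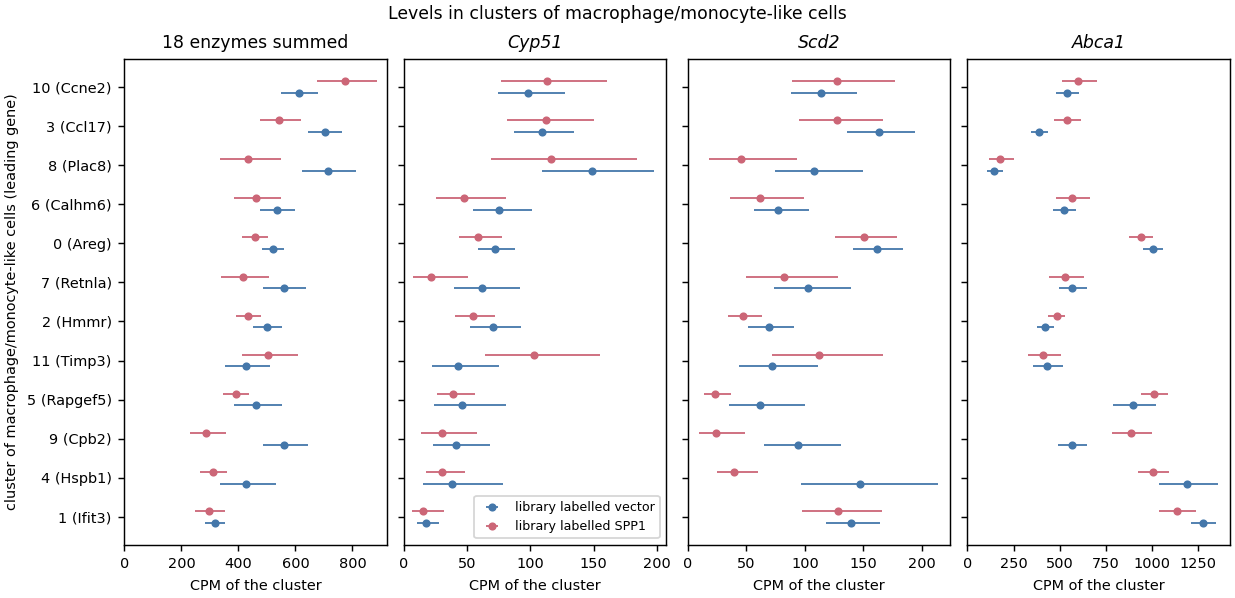
Levels (CPM of the cluster) of the 18 enzymes summed, Cyp51, Scd2 and Abca1 in the 12 clusters of macrophage/monocyte-like cells; points are the 2 libraries, and bars are exact 95% Poisson intervals for counting error only. The interferon-response cluster 1 has the lowest Cyp51 (17.8 and 15.5 CPM), and the Plac8 cluster 8 has the lowest Abca1 (142 and 174 CPM).

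In macrophage/monocyte-like cells the same ranking at 5000 UMIs (639 and 488 cells used) gave a weaker r between mevalonate and later enzymes, 0.32 and 0.22, on a mean of only 2.67 and 2.03 enzyme UMIs per cell against 4.78 and 3.72 in the compartment. Msmo1 (97 UMIs in the top against 30 in the bottom 20% and 58 against 12, 1.69 and 2.27), Cyp51 (1.71 and 2.04), Insig1 (64 against 32 and 48 against 15, 1.00 and 1.68) and Stard4 (1.73 and 1.46) were higher in the top group, beside 2.55% of 7620 genes. Of the 18 enzymes, 10 were at least 1.5-fold higher in both libraries and 5 had both intervals above 0; Mvd (0.00 and 0.32), Nsdhl (0.77 and 0.19), Pmvk (1.47 and 0.29) and Fdps (3.17 and 0.42) were among those that did not pass in both. Of the 153 pairs of enzymes, 111 and 89 had a correlation above 0. Abca1 was lower in the top group here too, with 290 against 557 UMIs and 291 against 422 (-0.94, -1.15 to -0.73, and -0.54, -0.76 to -0.32). Both ratios were smaller in size than in the compartment, and that under the label SPP1 was short of 1.5-fold. Of the 7620 genes, 2.44% were 1.5-fold lower in both libraries.

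Other classes were small or shallow. T and NK-like cells (1.69% and 1.10% of cells) had 554 and 747 CPM of summed enzymes, the only class with more under the label SPP1, on a Hmga2-list level of 586 and 1107 CPM that differed the same way; the part of free RNA in this was not tested. Stard4 there (84.5 and 76.5 CPM) was above its level in the compartment, 57.5 and 50.7 CPM. Dendritic cell-like cells (45 and 26) had 897 and 675 CPM, endothelial-like cells (34 and 68) 693 and 474 CPM, with Abca1 at 309 and 146 CPM in the latter. The low-UMI or mixed cells (2772 and 2603, median 1753 and 2166 UMIs) had 1109 and 854 CPM, near the compartment, but Insig1 there was at 237 and 217 CPM against 91.7 and 82.0.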

How the data were processed

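The 2 single-cell libraries were grouped by their titles. The authors deposited raw UMI counts for each gene and barcode, made with Cell Ranger 2.1.1 on GRCm39, per the submitters' processing notes. How cells were called, which annotation was used and whether doublets had been taken out were not given in the sources used here. The members and lists were chosen with earlier results of these data known. Values of a few related genes are not reported here, and Rnf139 was not analysed here.

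Barcodes were used when they had 300 genes or more, 500 UMIs or more and no more than 15% of UMIs from mitochondrial genes. Doublets were called in each library with a re-implementation of Scrublet's method (2 simulated per cell, expected rate 0.06, Otsu threshold with scikit-image), and 349 (2.45%) and 370 (2.65%) cells were removed. Counts scaled to 10000 per cell were logged, reduced to 30 principal components (20 within macrophages) of 2000 variable genes, and clustered with leidenalg (20 neighbours, resolution 1.0, seed 0, no batch integration). A cluster took a name from 3 or more raised markers (10 CPM or more, log2 ratio 1 or more over the other cells). Levels of the Hmga2 list (Hmga2, Sox9, Prrx1, Tafa1 and Hoxa9) and of UMIs, both at 0.5 of the median, set the compartment and the low-UMI or mixed set apart. These 2 limits were chosen after seeing the data.

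UMIs were summed per class and library and given as CPM. No test was run, since a group is 1 library and cells are not replicates. A gene with at least 100 UMIs was counted from 1.5-fold. Exact Poisson and conditional binomial intervals (95%) cover counting error only. The computations were tested on simulated data. The named genes were all members, other pathway genes past 1.5-fold between libraries, and up to 15 outside genes with the largest top-over-bottom-fifth ratio in both libraries (mitochondrial, ribosomal, haemoglobin, Gm, Rik and Y-linked genes, Xist and Tsix left out). Promoter windows are from RefSeq on GRCm38.p6, a build other than that of the counts, and no coordinates were converted.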

Additional observations from a re-analysis of the deposited data

How the results depend on the processing

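No paired analysis was possible because each group has 1 library. Member counts under the other settings stand without shares of all genes, which were not counted again. In the compartment the count of members 1.5-fold lower, 2, became 0 without clusters 4 and 12 and 1 (Msmo1) when log2 ratios were averaged over clusters with equal weight, and the summed enzymes went from -0.36 to -0.31 without clusters 4 and 12. In cells thinned to 1000 UMIs, Tm7sf2 (0.17), Ebp (-0.078) and Stard4 (0.011) changed sign in the compartment, and Ebp (-0.22) and Sc5d (0.10) did so in macrophage/monocyte-like cells. In the latter, the count of 2 became 0 after thinning, 1 with scaling by the median ratio, 4 without the 3 highest cells of each gene and 5 with the low-UMI mixed macrophage cluster, an alternative chosen after seeing the data. The summed ratio there was -0.49 after thinning and -0.37 with that cluster. Of the enzymes lower in macrophages than in the compartment, 7 were counted after thinning, against 12. The correlation of the summed mevalonate and later enzymes was 0.448 and 0.434 at 3000 UMIs, 0.652 and 0.634 at 8000 UMIs, 0.601 and 0.566 over the whole compartment and 0.503 and 0.465 without Fdps, Fdft1 and Sqle. It was higher at greater depth in both libraries. The cause of the changes in this section was not tested. The other 39 main values and 423 single-gene values moved by less than their counting interval or 1.5 times, and 44 single-gene values moved further; of these, a change of sign was seen only where the first interval lay across 0. The ranking of macrophage/monocyte-like cells was added after seeing the data. No macrophage cluster came over 90% from 1 library, so that alternative gave no value there.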
